A study of Homo sapiens with 18 samples.

Results

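The genes examined here encode the thyroid hormone receptors, THRA and THRB, and the retinoid X receptors, RXRA and RXRB. They were taken by symbol from the array annotation, using features that carry a single gene, a feature being the set of probes that gives 1 value per array. They made up 4 of 18404 genes and 6 of 19158 such features. THRA (feature 8007008), THRB (8085797) and RXRA (8159127) had 1 feature each. RXRB had 3, and the one with the highest mean over all arrays (8178903) was used, with the others (8125638 and 8180111) given beside it.

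Total RNA from HepG2, a human liver tumour line, was hybridised to 18 arrays in 6 groups of 3. Cells carried an expression plasmid for TRα1, for TRβ1 or the plasmid with no insert, were all selected with G418, and grew in medium with 10% hormone-stripped serum. Each pool was given either 100 nM of the hormone T3 (triiodothyronine) or its ethanol vehicle for 6 h. The groups are called the TRα1 pool on T3 and on vehicle, the TRβ1 pool on T3 and on vehicle, and the empty plasmid pool on T3 and on vehicle. The TRα1 pool combined 6 cell clones, the TRβ1 pool 12 and the empty plasmid pool 11. With 1 pool per construct, the construct and the clones that happened to be pooled cannot be told apart. The 3 arrays of a group are biological repeats of that pool. Levels below are log2 values after RMA, which corrects background, equalises the arrays and summarises the probes of a feature; a log2 difference of 1 is a doubling.

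Thyroid hormone receptors are nuclear receptors that sit on DNA, usually as a heterodimer with an RXR. Without hormone they hold corepressor complexes at their target genes, and T3 exchanges these for coactivators. THRA encodes TRα1 and, by alternative splicing, TRα2, which does not bind T3. THRB encodes TRβ1 and TRβ2, and TRβ1 is the main receptor of hepatocytes. RXRα is the principal RXR of liver, and RXRβ is expressed broadly.

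The arrays carried the profile of liver cells. The 8 hepatocyte markers measured, among them albumin (ALB) and transthyretin (TTR), had mean levels between 10.7 and 12.7, against a median of 6.13 over all tested features. The 9 markers of leukocytes, fibroblasts and endothelium ranged from 2.46 for PTPRC to 8.51 for CD68, with a median of 4.80. The first component held 49.2% of the variance between arrays, and what it followed was not tested. After group means were subtracted, 18 of 18 arrays matched best with an array of their own repeat number. The receptor genes differed by repeat number too: THRB averaged 6.86, 7.07 and 7.08 over the 6 arrays of repeats 1, 2 and 3, and RXRB averaged 8.87, 9.22 and 9.04. Tests were therefore run with and without the repeat number as a block, over all 20546 features with a symbol. A gene is called where its adjusted p is under 0.05, and calls come from the fit without the block except where the text names the block.

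In the RefSeq annotation of GRCh38.p14, THRA lies on chr17:40062193-40093867 (plus strand), THRB on chr3:24117153-24495708 (minus strand), RXRA on chr9:134326455-134440585 (plus strand) and RXRB on chr6:33193588-33200853 (minus strand). The RefSeq bases just upstream of THRB and RXRA are shown because these genes moved in opposite directions in all same-numbered T3 and vehicle pairs, as described below. Both run 5′ to 3′ on the gene's strand and end at the base before the annotated start, THRB at chr3:24495709-24495958 and RXRA at chr9:134326205-134326454. Capitals mark GGGCGG, the core of a GC box, read on both strands, with overlapping copies run together. The THRB window lies inside THRB-AS1, a noncoding gene on the opposite strand that was not analysed here.
THRB upstream: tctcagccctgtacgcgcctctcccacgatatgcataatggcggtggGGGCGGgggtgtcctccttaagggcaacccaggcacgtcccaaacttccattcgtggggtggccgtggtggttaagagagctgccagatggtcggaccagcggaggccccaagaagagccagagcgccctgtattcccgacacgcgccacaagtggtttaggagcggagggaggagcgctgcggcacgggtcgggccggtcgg
RXRA upstream: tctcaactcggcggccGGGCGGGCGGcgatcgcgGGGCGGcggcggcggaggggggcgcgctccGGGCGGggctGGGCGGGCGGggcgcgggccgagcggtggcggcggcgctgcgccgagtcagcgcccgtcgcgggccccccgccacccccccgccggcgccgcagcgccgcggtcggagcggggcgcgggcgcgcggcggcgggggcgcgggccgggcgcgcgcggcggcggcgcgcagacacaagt

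The THRB window held 1 copy of GGGCGG and 65.2% G and C, and the RXRA window held 6 copies and 89.2% G and C. At another listed start, RXRA had 1 copy and 64.4%, and THRB had 1 copy and 72.8%. The THRA window held 8 copies and 87.2%, and the RXRB windows 0 copies with 53.6% and 1 copy with 61.6%. Whether these bases bear on the T3 differences was not tested. GGGCGG was present in 42.6% of 35116 such windows of all genes, whose median G and C content was 58.0%. The half-site of a thyroid hormone response element, AGGTCA on either strand, was not in any of the 7 windows of the 4 genes, while 12.1% of all windows held it. The paired form with a spacer of 4 bases, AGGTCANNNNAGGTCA, was in 0.0142% of all windows and in none of the 7. No match says only that these letters were not in these 250 bases.

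THRA was high in the pool that received a TRα1 plasmid and nowhere else. In the TRα1 pool THRA stood at 7.96, 8.22 and 7.71 on T3 (mean 7.96 ± 0.26, SD, n = 3), against 7.39, 7.55 and 7.55 on vehicle (mean 7.50 ± 0.10). In the TRβ1 pool THRA was 7.01, 6.85 and 7.17 on T3 and 6.91, 7.08 and 7.22 on vehicle. In the empty plasmid pool THRA was 7.08, 6.77 and 7.18 on T3 and 6.95, 7.04 and 7.19 on vehicle. All 6 arrays of the TRα1 pool lay above all 12 of the others, and the share of features with this separation was not computed. For 3 TRα1 arrays above 3 empty plasmid arrays, the share was 6.48% of features on T3 and 4.58% on vehicle. The TRβ1 and empty plasmid arrays overlapped throughout.

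**Figure D1:**
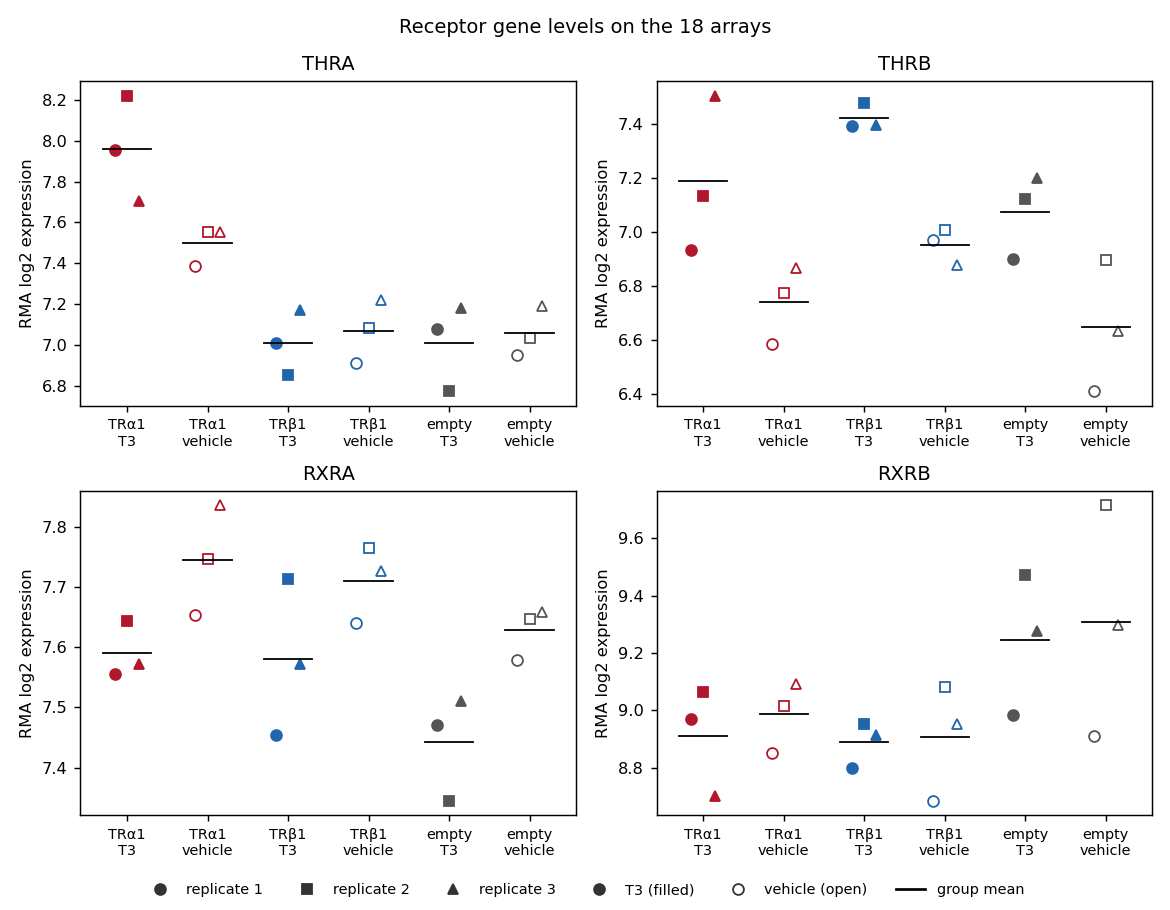
RMA log2 level (y axis, its range set for each gene) of THRA, THRB, RXRA and RXRB in every array, by pool and treatment, with replicate numbers as symbols, T3 filled, vehicle open and group means as bars. THRA in the TRα1 pool sits between 7.39 and 8.22 and above the 6.77 to 7.22 of the other pools; THRB is higher and RXRA lower on T3 in each pool.

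Averaged over both treatments, THRA was 0.69 ± 0.10 (SE) higher in the TRα1 pool than in the empty plasmid pool, a fold of 1.62 (95% interval 1.39 to 1.88). The adjusted p was 0.0014 (2.9e-04 with the block), and 6 of 6 same-numbered, same-treatment pairs were higher, as in 7.38% of all features. This contrast called 1.38% of all features, and 1.04% of all features were called upward. On T3 alone the TRα1 pool exceeded the empty plasmid pool by 0.95 ± 0.14, with pairs at 0.88, 1.45 and 0.53 and an adjusted p of 0.0039, where 0.433% of features were called. On T3 the TRβ1 pool was 0.95 ± 0.14 lower than the TRα1 pool in THRA (difference -0.95, adjusted p 0.016), where 0.0438% of features were called. More RNA per cell and more cells that express the gene cannot be told apart in pooled cells, and which parts of the plasmid transcript the probes cover is not given in the sources used here.

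The size of the THRA excess differed between treatments without passing the test. On vehicle it was 0.44 ± 0.14 over the empty plasmid pool, with pairs at 0.44, 0.52 and 0.36 and an adjusted p of 0.533 (0.128 with the block). The TRβ1 pool stood at -0.43 ± 0.14 from the TRα1 pool on vehicle, with an adjusted p of 1 (0.270 with the block). T3 against vehicle gave 0.46 ± 0.14 in the TRα1 pool, with pairs at 0.57, 0.67 and 0.15. The 3 T3 values lay above the 3 vehicle values, as in 2.64% of features, and the adjusted p was 0.907 (0.233 with the block). T3 gave -0.06 ± 0.14 in the TRβ1 pool and -0.05 ± 0.14 in the empty plasmid pool, with 1 of 3 pairs higher in each. The response in the TRα1 pool exceeded that in the empty plasmid pool by 0.51 ± 0.20 (95% interval 0.08 to 0.95), with an adjusted p of 1, and limma called 0% of features in this contrast without the block, with 286 at an unadjusted p under 0.05, and 0.0292% with it. The response in the TRβ1 pool minus that in the TRα1 pool was -0.52 ± 0.20 (-0.96 to -0.09), also with an adjusted p of 1 and 0% called (223 features at an unadjusted p under 0.05).

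Without the arrays numbered 1, 2 or 3, the TRα1 excess on T3 was 0.99, 0.70 and 1.16, with adjusted p of 0.060, 0.581 and 0.066, and without repeat 2 the treatment average was 0.55 with an adjusted p of 0.197. The TRβ1 against TRα1 difference on T3 lost its call in 7 of 9 settings: without any 1 repeat number, and without repeat 1 or 2 of either T3 group, at -1.16 to -0.74. With the block each of these kept its call with any 1 array left out, but leaving out a whole repeat number was not tried with the block.

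The 3′ end of THRA overlaps NR1D1, which encodes the circadian repressor Rev-erbα on the opposite strand, by 1075 bases (chr17:40092793-40093867). NR1D1 averaged 7.31 on T3 and 6.79 on vehicle in the TRα1 pool, 7.28 on T3 and 6.75 on vehicle in the TRβ1 pool, and 7.06 on T3 and 6.80 on vehicle in the empty plasmid pool. Its T3 difference was 0.52 ± 0.09 (adjusted p 0.033) in the TRα1 pool, 0.53 ± 0.09 (0.042) in the TRβ1 pool and 0.26 ± 0.09 (1) in the empty plasmid pool. NR1D1 rose with T3 in the TRα1 pool, where THRA differed by 0.46, and in the TRβ1 pool, where THRA differed by -0.06. Its level in the TRα1 pool on vehicle differed from the empty plasmid pool by -0.01, where THRA differed by 0.44. Whether the overlap bears on the THRA values was not tested. MED24, a Mediator subunit gene and the nearest gene on the other side, differed by 0.007 ± 0.15 with T3.

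THRB was higher on T3 in every pool, by nearly the same amount in each. In the TRα1 pool THRB was 6.93, 7.13 and 7.50 on T3, against 6.58, 6.77 and 6.87 on vehicle. In the TRβ1 pool it was 7.39, 7.48 and 7.40 on T3 and 6.97, 7.01 and 6.88 on vehicle. In the empty plasmid pool it was 6.90, 7.12 and 7.20 on T3 and 6.41, 6.90 and 6.63 on vehicle. The T3 and vehicle values did not overlap in any pool, a separation that 2.64%, 2.4% and 2.18% of features showed upward in the TRα1, TRβ1 and empty plasmid pools.

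Over the mean of the 3 pools, T3 raised THRB by 0.45 ± 0.085 (SE; 95% interval 0.27 to 0.63), a fold of 1.37 (1.20 to 1.55). The adjusted p was 0.024 (0.0011 with the block), and 0.423% of features were called in this contrast, 0.394% upward. THRB was the only one of the 4 genes called there in either fit, and 99.5% of features had a smaller signed difference. All 9 same-numbered pairs were higher, between 0.22 and 0.64, as in 2.04% of features. The exact two-sided sign-flip permutation test over these 9 pairs gave p = 0.0039, the smallest that 512 flips allow, unadjusted and 1 of 4 such tests. Any feature with 9 pairs in 1 direction reaches this p. The test treats the pairs as independent, though they come from 3 pools and share 3 repeat numbers.

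Taken pool by pool the THRB difference was 0.45 ± 0.15 in the TRα1 pool, 0.47 ± 0.15 in the TRβ1 pool and 0.43 ± 0.15 in the empty plasmid pool. None of these was called alone (adjusted p of 1 in each; 0.126, 0.131 and 0.430 with the block). These contrasts called 0.131%, 0.073% and 0.00973% of features without the block and 0.667%, 0.477% and 0.0973% with it. For the differences between these responses, the TRα1 pool minus the empty plasmid pool gave 0.02 (95% interval -0.42 to 0.47), the TRβ1 pool minus the empty plasmid pool 0.04 (-0.40 to 0.49), and the TRβ1 pool minus the TRα1 pool 0.02 (-0.42 to 0.47).

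**Figure D2:**
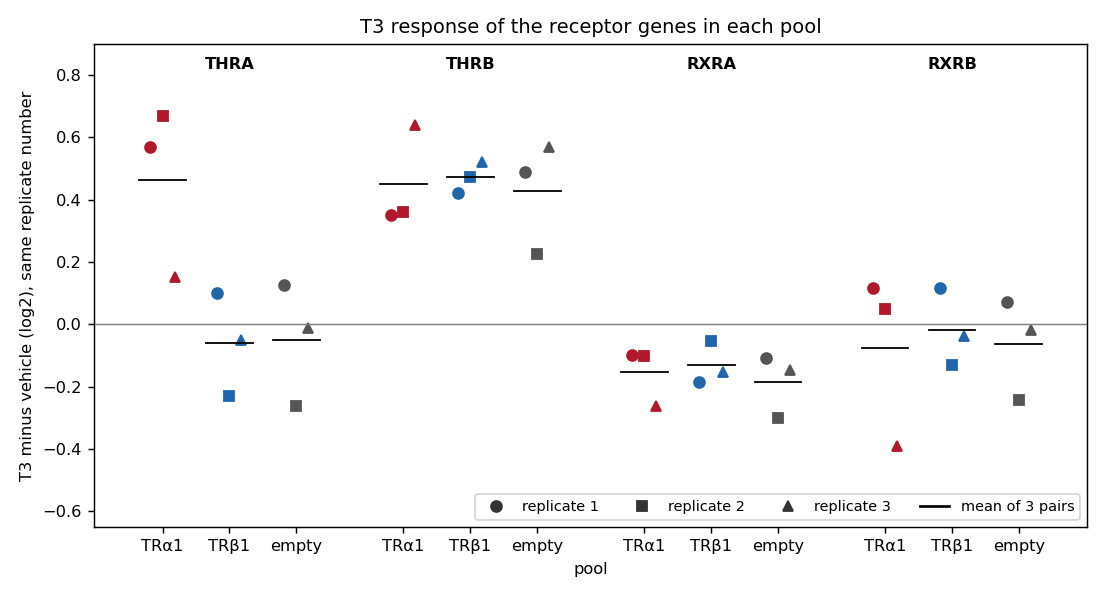
T3 minus vehicle (y axis, log2) of each same-numbered pair of arrays for THRA, THRB, RXRA and RXRB in the TRα1, TRβ1 and empty plasmid pools, with bars at the mean of the 3 pairs. The 9 THRB points lie between 0.22 and 0.64 and the 9 RXRA points between -0.30 and -0.05, while THRA stands above 0 in 3 of 3 pairs of the TRα1 pool only.

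Without the block, the THRB call on the mean of 3 pools held in 11 of 21 settings that leave out an array or a repeat number. It was lost without repeat 2 (0.50, adjusted p 0.595) or repeat 3 (0.39, adjusted p 0.953), and without any 1 of 8 arrays (0.41 to 0.45, adjusted p 0.052 to 0.073): TRα1 vehicle 1, TRβ1 vehicle 3, TRβ1 T3 2 and 3, empty plasmid vehicle 1 and 3, and empty plasmid T3 2 and 3. With the block it held in 18 of 18 settings that leave out 1 array, at 0.40 to 0.49, and leaving out a repeat number was not tried.

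**Figure D3:**
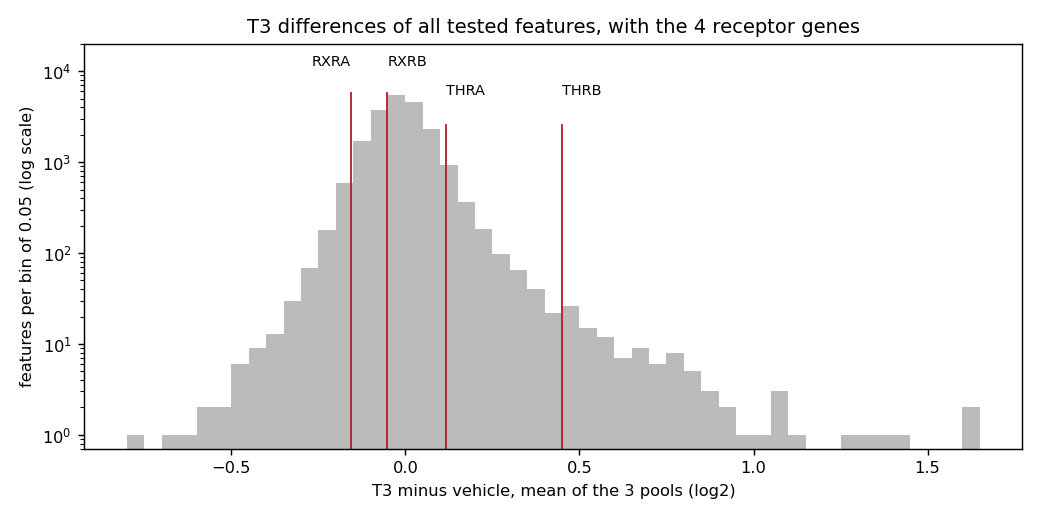
Number of features (y axis, log scale) by T3 minus vehicle difference averaged over the 3 pools (x axis, log2, bins of 0.05), with the 4 receptor genes as vertical lines. THRB at 0.45 lies in the upper tail, above 99.5% of features, THRA at 0.12 above 93.3%, RXRB at -0.05 above 29.8% and RXRA at -0.16 above 3.7%.

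The pool carrying the TRβ1 plasmid stood above the empty plasmid pool in THRB, by a smaller margin than the THRA excess of the TRα1 pool. These margins come from different features, whose coverage of the plasmid transcripts is not given, so they do not compare receptor levels. Averaged over treatments the THRB difference was 0.33 ± 0.10 (SE; 95% interval 0.10 to 0.55), a fold of 1.25, with 6 of 6 pairs higher, as in 5.13% of features. Its adjusted p was 0.403, where 0.38% of features were called, and 0.037 with the block, where 3.61% were. With the block it kept its call in 3 of 12 settings that leave out 1 array. The difference was 0.35 ± 0.15 on T3, with the 3 TRβ1 values above the 3 empty plasmid values as in 4.92% of features, and 0.30 ± 0.15 on vehicle, where TRβ1 vehicle 3 (6.88) fell below empty plasmid vehicle 2 (6.90). Against the TRα1 pool the TRβ1 pool differed in THRB by 0.23 ± 0.15 on T3 and 0.21 ± 0.15 on vehicle, neither called. The TRα1 pool minus the empty plasmid pool was 0.11 ± 0.10 (adjusted p 0.944).

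Ordered by mean, THRB ran from the TRβ1 pool on T3 (7.42 ± 0.05) through the TRα1 pool on T3 (7.19 ± 0.29), the empty plasmid pool on T3 (7.07 ± 0.16), the TRβ1 pool on vehicle (6.95 ± 0.07) and the TRα1 pool on vehicle (6.74 ± 0.14) to the empty plasmid pool on vehicle (6.65 ± 0.24). Of these neighbours only the TRβ1 and TRα1 pools on vehicle had values that did not overlap, at 6.88 to 7.01 against 6.58 to 6.87, as in 2.74% of features. For THRA the first 2 steps were separated, from the TRα1 pool on T3 to the TRα1 pool on vehicle and from there to the TRβ1 pool on vehicle (7.07 ± 0.15), and the rest overlapped. The first separation was seen in 2.64% of features, and the share for the second is not given here. Differences between the 6 groups held 85.9% of the variance of THRA, 76.1% of that of THRB, 68.1% of that of RXRA and 44.8% of that of RXRB. With so few arrays per group, part of such a share arises without any group effect. The shares of other features were not computed.

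**Figure D4:**
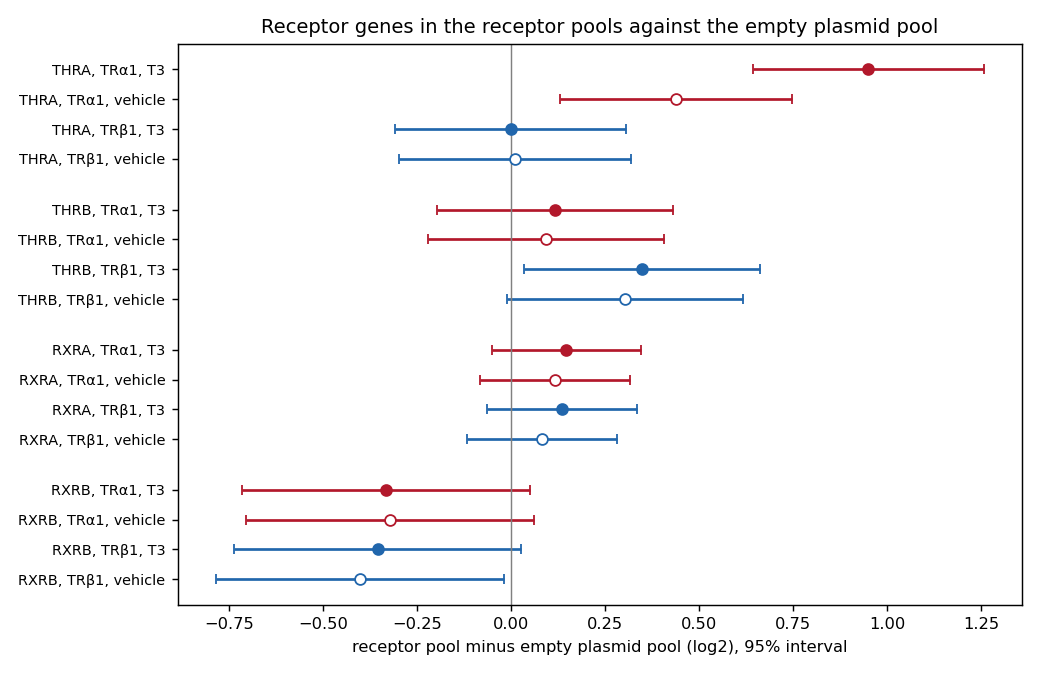
Receptor pool minus empty plasmid pool (x axis, log2, with 95% intervals from limma without the block) for each gene, on T3 (filled) and vehicle (open), TRα1 in red and TRβ1 in blue. THRA stands at 0.95 on T3 and 0.44 on vehicle for TRα1, with both TRβ1 values within 0.02 of 0; THRB in the TRβ1 pool stands at 0.35 and 0.30, and the 4 RXRB values lie between -0.40 and -0.32.

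RXRA varied little and was slightly lower on T3 in every pair, without a call. In the TRα1 pool RXRA was 7.56, 7.64 and 7.57 on T3 and 7.65, 7.75 and 7.84 on vehicle. In the TRβ1 pool it was 7.45, 7.71 and 7.57 on T3 and 7.64, 7.77 and 7.73 on vehicle. In the empty plasmid pool it was 7.47, 7.35 and 7.51 on T3 and 7.58, 7.65 and 7.66 on vehicle. The T3 values lay below the vehicle values in the TRα1 and empty plasmid pools, as in 2.62% and 3.98% of features, and overlapped with them in the TRβ1 pool. The SD of RXRA over all 18 arrays was 0.12, at percentile 9.7 of the SDs of all features.

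The RXRA difference with T3 was -0.15 ± 0.09 in the TRα1 pool, -0.13 ± 0.09 in the TRβ1 pool and -0.19 ± 0.09 in the empty plasmid pool. Over the mean of 3 pools it was -0.16 ± 0.054 (95% interval -0.27 to -0.04), a fold of 0.897, with an adjusted p of 0.723 (0.109 with the block). All 9 pairs were lower, as in 1.80% of features, and the exact sign-flip permutation test gave p = 0.0039, unadjusted. With all 9 pairs in 1 direction this p is fixed whatever their sizes, so it adds nothing to the count of pairs. RXRA missed the threshold set over all features. Between pools, averaged over treatments, RXRA differed from the empty plasmid pool by 0.13 ± 0.07 (TRα1 pool) and 0.11 ± 0.07 (TRβ1 pool), with adjusted p of 0.643 and 1. In the order of the 6 means, from 7.74 in the TRα1 pool on vehicle to 7.44 in the empty plasmid pool on T3, every pair of neighbours overlapped.

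RXRB had a lower level in both receptor pools by its brightest feature, called only with the block. Its second feature differed in the same direction without a call, and the third in the opposite one. By feature 8178903, RXRB was 8.97, 9.06 and 8.70 on T3 and 8.85, 9.02 and 9.09 on vehicle in the TRα1 pool. It was 8.80, 8.95 and 8.91 on T3 and 8.69, 9.08 and 8.95 on vehicle in the TRβ1 pool. In the empty plasmid pool it was 8.98, 9.47 and 9.28 on T3 and 8.91, 9.71 and 9.30 on vehicle. The empty plasmid arrays of repeat 2 were the highest of all 18, and those of repeat 1 lay among the receptor pools.

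Averaged over treatments, RXRB by this feature differed from the empty plasmid pool by -0.33 ± 0.13 (95% interval -0.60 to -0.06) for the TRα1 pool and by -0.38 ± 0.13 (-0.65 to -0.11) for the TRβ1 pool. Without the block the adjusted p were 0.407 and 0.468, and with it 0.035 and 0.027, where 7.54% and 3.61% of features were called. In each comparison 6 of 6 pairs were lower, as in 6.16% and 4.73% of features, and both use the same empty plasmid arrays. With the block and 1 array left out, the call held in 4 of 12 settings for TRα1 and 3 of 12 for TRβ1. Feature 8125638 gave -0.13 ± 0.12 and -0.17 ± 0.12 (adjusted p 0.562 and 0.513 with the block), and feature 8180111 gave 0.08 ± 0.13 and 0.05 ± 0.13 (0.601 and 0.777). The same pairs were lower in 5 and 4 of 6 by the second feature and in 2 and 2 of 6 by the third.

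T3 did not move RXRB detectably by any of its features. The mean of 3 pools was -0.05 ± 0.10 by the brightest feature (95% interval -0.27 to 0.17), with 4 of 9 pairs higher and an exact sign-flip permutation p of 0.414. It was 0.13 ± 0.10 by the second and 0.09 ± 0.10 by the third. The second feature had its widest pair in the TRα1 pool at repeat 3, at 8.24 on T3 and 7.50 on vehicle, a difference of 0.74, where the brightest feature gave -0.39 and the third -0.06. Groups held 30.4% of the variance of feature 8125638 and 10.5% of that of feature 8180111, shares that can arise without any group effect. The direct neighbours differed little with T3: COL11A2, a collagen gene 69 bases away, by -0.06 ± 0.07, and SLC39A7, a zinc transporter gene 14 bases away, by 0.02 ± 0.05.

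**Figure D5:**
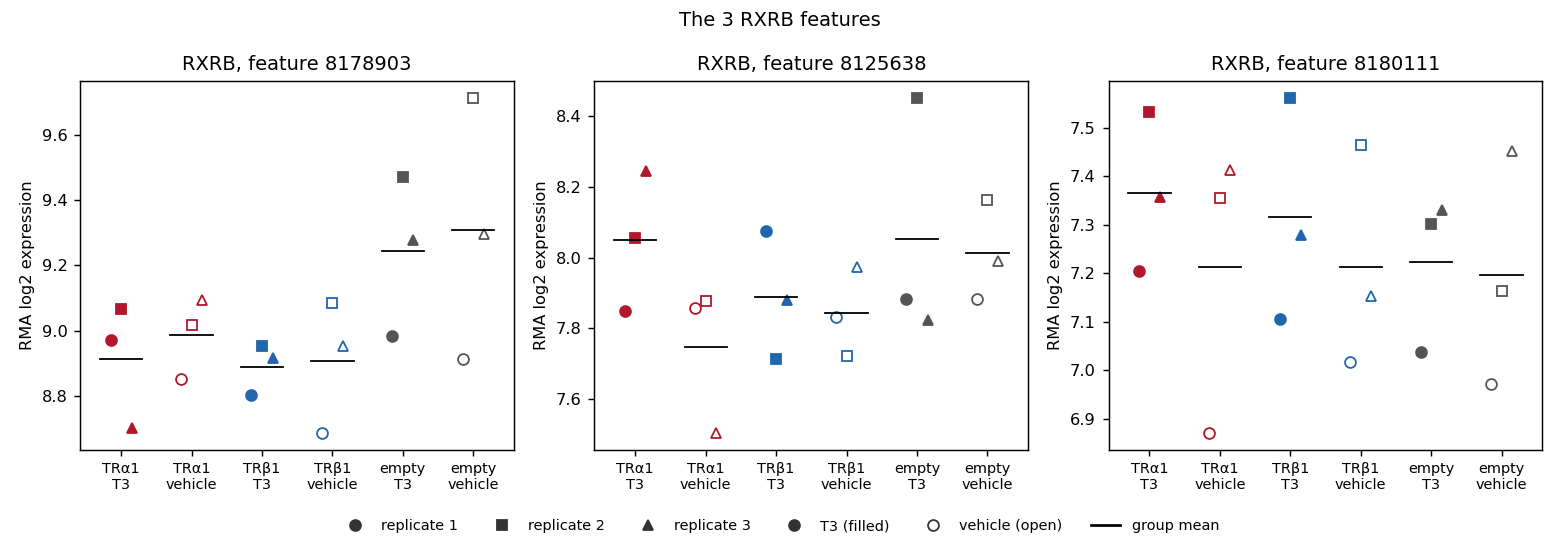
RMA log2 level (y axis, its range set for each feature) of the 3 RXRB features in every array by pool and treatment, with replicate numbers as symbols, T3 filled, vehicle open and group means as bars. By feature 8178903 the receptor pools average 8.89 to 8.99, below the empty plasmid pool at 9.24 on T3 and 9.31 on vehicle; by feature 8180111 the receptor pools average 7.21 to 7.36 and the empty plasmid pool 7.22 on T3 and 7.20 on vehicle.

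The genes that work with these receptors were followed in 5 lists, drawn up with earlier results of these data known. Among other nuclear receptors that bind RXR or related sites, 14 of 19 were measured, and T3 over the mean of 3 pools raised 1, NR1D1 (0.44 ± 0.05, adjusted p 5.1e-04), and lowered 0, where 0.394% of all features were called higher and 0.0292% lower. PPARG, a fat cell and lipid receptor, fell only with the block (-0.25 ± 0.06, adjusted p 0.040), where 1.69% of all features were called in either direction. The list's median difference was -0.07, against -0.01 over all tested features. RXRG, the remaining retinoid X receptor gene, differed in the TRα1 pool by -0.33 ± 0.14 (adjusted p 1).

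Of the corepressor genes 5 of 7 were measured. Over the mean of 3 pools 0 passed in either direction, where 0.423% of all features were called without the block and 1.69% with it. Their T3 differences lay between -0.16 (SIN3A) and -0.03. An unadjusted p under 0.05 in limma was reached by 0 members (2 with the block), against 784 of all 20546 features (2126 with the block). Of the coactivators and other cofactors 11 of 12 were measured and 0 passed without the block, with 1 at an unadjusted p under 0.05. With the block NRIP1, a cofactor that represses many nuclear receptors, rose (0.29 ± 0.05, adjusted p 0.0021), and PPARGC1A, a coactivator of gluconeogenesis and mitochondrial genes, fell (-0.22 ± 0.05, adjusted p 0.022), against 1.69% of all features called. Among hormone carriers, transporters and deiodinases 12 of 13 were measured, 0 passed without the block (1 at an unadjusted p under 0.05), against 0.423% of all features. With the block 1 rose, against 1.69% of all features called: DIO1, the liver deiodinase (0.31 ± 0.05, adjusted p 0.0023).

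The list of textbook T3 response genes of liver was drawn up with earlier results of these data known. Its counts are therefore no independent check. Of its genes 21 of 23 were measured, 4 rose and 1 fell, against 0.394% and 0.0292% of all features. The 4 were NR1D1, the gluconeogenic enzymes PCK1 (0.91 ± 0.16) and G6PC1 (0.87 ± 0.17), and CPT1A (0.88 ± 0.11), which brings fatty acids into mitochondria. SLC2A1, the glucose transporter GLUT1, fell (-0.52 ± 0.06). With the block, where 1.69% of all features were called, 7 rose and 1 fell, the additions being DIO1, the transcription factor KLF9 (0.36 ± 0.06, adjusted p 0.0045) and BCL3 (0.29 ± 0.06, adjusted p 0.027). The median of the list was 0.105, against -0.014 over all features. The THRB difference of 0.45 was thus close in size to that of NR1D1 and smaller than those of PCK1, G6PC1 and CPT1A.

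On vehicle, where receptors lack hormone, 0 members of the 5 lists were called without the block in the TRα1 or TRβ1 pool against the empty plasmid pool, where 0.307% and 0.117% of all features were called. An unadjusted p under 0.05 in limma was reached in the order of the lists by 0, 1, 2, 1 and 2 members for TRα1. For TRβ1 it was reached by 0, 0, 1, 1 and 2. Of all 20546 features, 977 reached it for TRα1 and 722 for TRβ1. With the block, where 2.07% were called, the TRα1 pool was higher in TBL1X, a corepressor subunit (0.41 ± 0.09, adjusted p 0.027), NRIP1 (0.37 ± 0.08, 0.021) and SERPINA7, thyroxine-binding globulin (0.68 ± 0.07, 1.2e-04), and lower in TTR, a thyroxine carrier (-0.59 ± 0.08, 5.1e-04). With the block, where 0.735% were called, the TRβ1 pool was higher in SERPINA7 (0.46 ± 0.07, 0.0068; its groups overlapped in both pools) and lower in DIO1 (-0.41 ± 0.09, 0.041). Between the receptor pools on vehicle, the TRβ1 pool exceeded the TRα1 pool in TTR (0.58 ± 0.08, 0.0019) and SLC2A1 (0.43 ± 0.08, 0.033) with the block, where 0.54% of features were called. Without the block 0 list members were called, where 0% of features were. There 0, 0, 0, 1 and 1 members reached an unadjusted p under 0.05, against 593 of all 20546 features.

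The genes whose levels ran most closely with each receptor gene over the 18 arrays were found among 9326 genes. Only genes at or above the median level were compared, each with its mean within a repeat number subtracted, and the values of r describe these arrays only. TSPAN4 (r = 0.89), EIF2AK1 (0.88) and SPOCK2 (0.878) ran with THRA. SPOCK2 averaged 7.80 on T3 and 7.35 on vehicle in the TRα1 pool, 7.13 on T3 and 6.88 on vehicle in the TRβ1 pool, and 7.03 on T3 and 6.85 on vehicle in the empty plasmid pool. HGD (r = 0.925), TACC1 (0.889) and USP30 (0.855) ran with THRB. HGD, an enzyme of tyrosine breakdown, averaged 10.09 on T3 and 9.77 on vehicle in the TRα1 pool, 10.21 on T3 and 9.82 on vehicle in the TRβ1 pool, and 10.02 on T3 and 9.68 on vehicle in the empty plasmid pool. INPPL1 (r = 0.893), TSR3 (0.886) and LIME1 (0.883) ran with RXRA, each with a lower mean on T3 in every pool. PARK7 (r = 0.885), TMEM50A (0.88) and MCM10 (0.873) ran with RXRB, each with its highest means in the empty plasmid pool.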

How the data were processed

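HepG2 RNA was measured on 18 single-colour arrays, 6 groups of 3. The authors deposited 1 value per feature and array, on the log2 scale. The submitters' processing notes name RMA and R 2.7.1; the genome build and filters are not given in the sources used here. The values were used as deposited (0.894 to 13.7; array medians 5.31 to 5.49). RMA equalises the arrays, so a shift common to all genes would not be seen, and with no detection values a low level cannot be told from background.

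Features were named through the platform annotation: 20546 of 32321 had a symbol and were tested, 1388 of them with several genes. limma 3.58.1 in R 4.3.3 fitted 6 group means to all 18 arrays (12 residual degrees of freedom), with two-sided moderated tests, Benjamini-Hochberg adjustment over all tested features and a threshold of 0.05. The number of arrays limits the precision. The fit was tested on simulated data.

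The labels number the repeats 1 to 3 in every group. After subtracting group means, all 45 same-numbered pairs of arrays from different groups correlated positively (lowest 0.259), different numbers correlated at a median of -0.483, and 18 of 18 arrays matched best with their own number. The numbers were therefore taken to pair the arrays, and the fit with the number as a block (10 residual degrees of freedom) is given where it changes a call. The median SE of a difference of 2 groups was 0.157 without and 0.107 with the block.

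The genes and lists, the contrasts reported and the alternatives with the block were chosen with earlier results of these data known. The named genes were the 4 receptor genes with all their features, list members called or with the largest differences, neighbours in RefSeq, and the 3 genes most correlated with each after removing repeat number means. List members without a feature of their own were not analysed here. Alternatives tried were the block, subtracting array medians, fitting only the groups compared, tested features with a mean at or above the median, all features of the table, array weights, a variance trend with robust estimation, other features of RXRB, and leaving out each array or repeat number. Windows upstream came from RefSeq (GRCh38.p14), and the build of the array's probes was not compared with it.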

Additional observations from a re-analysis of the deposited data

How the results depend on the processing

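Over the alternatives that left out no array, 241 of 255 values kept their direction and side of the threshold, and 27 of 34 differences were called in no setting. The replicate block made calls of the treatment-averaged differences from the empty plasmid pool of RXRB (-0.33 for TRα1, -0.38 for TRβ1) and of THRB for TRβ1 (0.33). With the block and array medians subtracted, the RXRB values were -0.34 and -0.39 and called, and the THRB value for TRβ1 was 0.32 and not called (adjusted p 0.051). With the block and 1 array left out, calls appeared at -0.36 (without TRα1 vehicle 3), -0.35 (without empty plasmid T3 1) and other values in the ranges below for RXRB, and at 0.37 and 0.36 (without TRβ1 vehicle 3 or TRβ1 T3 3) for THRB. The block changed no other call of the 34. Fitting only the groups compared ended the THRA calls on T3, at an unchanged 0.95 for TRα1 against the empty plasmid (adjusted p 0.202) and -0.95 for TRβ1 against TRα1 (0.719), with fewer arrays in the fit. The sign turned for the THRA difference of TRβ1 from the empty plasmid with array medians subtracted (-0.0038), for RXRB with T3 by the second (0.13) and the third feature (0.094), and for RXRB in the TRα1 (0.080) and TRβ1 (0.054) pools by the third feature, with and without the block; the cause was not tested.

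With 1 array or repeat number left out, the THRB difference with T3 over 3 pools ran from 0.39 to 0.50 (0.40 to 0.49 with the block) and its mean over pairs over the same range. Ranges with the block are for 1 array left out only. RXRA over pairs ran from -0.17 to -0.14, each at an exact permutation p of 0.031, the smallest that 6 pairs allow. The THRA excess of TRα1 over the empty plasmid ran from 0.70 to 1.16 on T3 (0.79 to 1.14 with the block) and from 0.55 to 0.82 over treatments (0.61 to 0.79), and TRβ1 against TRα1 on T3 from -1.16 to -0.74 (-1.15 to -0.79). THRB in TRβ1 over the empty plasmid ran from 0.23 to 0.39 (0.28 to 0.38), RXRB in TRα1 from -0.47 to -0.21 (-0.40 to -0.26) and in TRβ1 from -0.48 to -0.28 (-0.44 to -0.31). Ranges that crossed 0 were, for THRA, T3 in the TRβ1 pool (-0.14 to 0.024), T3 in the empty plasmid pool (-0.14 to 0.070) and TRβ1 against the empty plasmid (-0.054 to 0.047), for RXRB with T3 -0.13 to 0.016, and for the THRB response differences -0.13 to 0.15 (TRα1 minus empty plasmid), -0.081 to 0.16 (TRβ1 minus empty plasmid) and -0.11 to 0.18 (TRβ1 minus TRα1).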
